A study of Mus musculus with 7 samples.

Results

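The 47 genes described here encode proteins that drive chromosomes through mitosis and split the cell at cytokinesis. They were listed by gene symbol as known mitotic genes, with earlier results of these data in view, and all 47 symbols stood in a count table of 23366 mouse genes. By role they comprised 6 genes of Cdk1 and its cyclins, 5 other mitotic kinases, 6 genes of the spindle checkpoint and the anaphase-promoting complex (APC/C), 4 of the chromosomal passenger complex, 6 of the kinetochore, 6 of the spindle, 8 of chromosome structure, 4 of cytokinesis and 2 regulators. Messenger RNA had been sequenced from cultures labelled as primary embryonic motor neurons, prepared from spinal cords of C57BL/6 mouse embryos at embryonic day 13.5 by separation over an Optiprep density gradient. The cultures had been transduced with lentivirus, and the study is about miR-218, a microRNA that motor neurons make in abundance, and amyotrophic lateral sclerosis. There were 3 libraries from cultures given a virus that overexpresses miR-218 (OE), 2 from cultures given a virus that knocks miR-218 down (KD) and 2 from cultures given the empty virus (control). The 3 groups shared strain, stage, medium with B27, 2% horse serum and 1 ng/ml of the trophic factors CNTF and GDNF, and 200 µM fluorodeoxyuridine, which was added after 5 days of culture against the growth of glia. The series' design text speaks of duplicates, whereas 3 titles name OE libraries, each of which was analysed. Whether the libraries of a group stem from different cultures is not stated, and a p-value here then reflects only sample-to-sample spread, possibly technical.

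Entry into mitosis is driven by the kinase Cdk1 bound to B-type cyclins, and exit from it by the APC/C, a ubiquitin ligase that the spindle checkpoint holds inactive until every kinetochore is attached. Most genes of this machinery are transcribed together late in the cell cycle: the MuvB complex binds a short element near their start sites, the cell cycle genes homology region (CHR), with pocket proteins in resting cells and with B-MYB and FOXM1 in dividing ones, while the factor NF-Y binds CCAAT boxes upstream. Motor neurons have left the cell cycle for good, whereas glia, fibroblasts and progenitors of an embryonic spinal cord can divide in culture. Fluorodeoxyuridine inhibits thymidylate synthase, and cells that try to copy their DNA in its presence run short of thymidine nucleotides.

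The promoters of these genes are shown because most of the genes had a higher level with either virus than with the empty one. Whether they varied together across the libraries was not tested. Promoters from 250 bases before to 50 bases after an annotated start were taken from RefSeq (GRCm38.p6) and matched by symbol for 39 of the 47 genes. They were searched on both strands for TTTGAA, the core of the CHR, for CCAAT, and for TTCCCGC, a form of the E2F site, and 1 pair of matches of different motifs overlapped. Capitals below mark matches to TTTGAA and CCAAT on either strand, and each sequence reads 5′ to 3′ on the strand of its gene.
Cdk1 (minus strand): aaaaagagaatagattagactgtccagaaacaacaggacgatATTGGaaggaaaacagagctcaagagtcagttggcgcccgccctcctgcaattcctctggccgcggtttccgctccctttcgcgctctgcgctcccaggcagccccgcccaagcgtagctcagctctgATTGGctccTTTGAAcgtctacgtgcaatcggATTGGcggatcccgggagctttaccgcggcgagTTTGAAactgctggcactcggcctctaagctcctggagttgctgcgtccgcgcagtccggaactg
Top2a (minus strand): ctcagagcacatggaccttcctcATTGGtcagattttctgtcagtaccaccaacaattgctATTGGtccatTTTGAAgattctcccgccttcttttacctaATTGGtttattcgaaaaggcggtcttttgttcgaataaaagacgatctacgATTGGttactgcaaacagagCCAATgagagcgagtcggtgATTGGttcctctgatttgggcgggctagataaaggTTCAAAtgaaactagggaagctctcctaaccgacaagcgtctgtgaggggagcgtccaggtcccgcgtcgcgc
Cenpa (plus strand): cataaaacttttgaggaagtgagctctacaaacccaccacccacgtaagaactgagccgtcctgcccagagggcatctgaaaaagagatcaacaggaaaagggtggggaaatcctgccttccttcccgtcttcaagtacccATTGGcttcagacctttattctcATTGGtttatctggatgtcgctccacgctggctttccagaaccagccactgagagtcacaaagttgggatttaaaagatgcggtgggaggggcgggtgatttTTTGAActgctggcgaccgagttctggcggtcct
Anln (minus strand): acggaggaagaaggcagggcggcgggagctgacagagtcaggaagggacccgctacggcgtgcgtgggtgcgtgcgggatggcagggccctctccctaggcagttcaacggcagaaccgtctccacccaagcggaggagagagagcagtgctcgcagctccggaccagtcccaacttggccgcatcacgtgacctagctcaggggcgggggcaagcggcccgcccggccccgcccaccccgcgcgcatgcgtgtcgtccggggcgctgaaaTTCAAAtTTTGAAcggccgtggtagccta
Prc1 (plus strand, the more upstream of its annotated starts): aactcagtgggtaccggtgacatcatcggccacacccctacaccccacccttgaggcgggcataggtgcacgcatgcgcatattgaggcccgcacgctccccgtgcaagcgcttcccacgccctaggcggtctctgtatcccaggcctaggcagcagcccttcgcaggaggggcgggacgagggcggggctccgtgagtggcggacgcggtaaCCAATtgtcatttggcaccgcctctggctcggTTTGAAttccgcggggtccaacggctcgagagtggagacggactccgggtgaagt
Ccnb1 (minus strand): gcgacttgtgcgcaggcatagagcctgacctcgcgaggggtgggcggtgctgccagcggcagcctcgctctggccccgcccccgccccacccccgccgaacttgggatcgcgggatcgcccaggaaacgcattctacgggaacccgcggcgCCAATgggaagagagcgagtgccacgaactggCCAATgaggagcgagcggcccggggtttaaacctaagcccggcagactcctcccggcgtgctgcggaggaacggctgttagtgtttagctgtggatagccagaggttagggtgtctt
Cdk1 and Top2a carry several CCAAT boxes before a TTTGAA match close to the start. Cenpa has its match after the start, Anln has a pair of matches and no CCAAT box, and Ccnb1 has CCAAT boxes without TTTGAA in this window. Prc1 has both motifs, although its level is one of the least changed described below.

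A TTTGAA match starting within 50 bases of the transcript start was present in 26 of the 39 promoters (66.7%), against 305 of 8997 other tested genes (3.39%) and 5.72% of all 27025 genes with a promoter in the table. CCAAT anywhere in the window was found in 29 of the 39 (74.4%), against 43.3% of the other tested genes and 41.1% of all genes. Both together, TTTGAA near the start and CCAAT anywhere, stood in 23 of the 39 (59%), against 1.96% and 2.79%. The E2F form was found in 1 of the 39 (2.56%), against 10.1% and 5.29%. Median GC content was 58.7% in the 39 genes' promoters and 61.7% in those of the other tested genes. These matches are letters in a window, with no measure of binding.

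**Figure D1:**
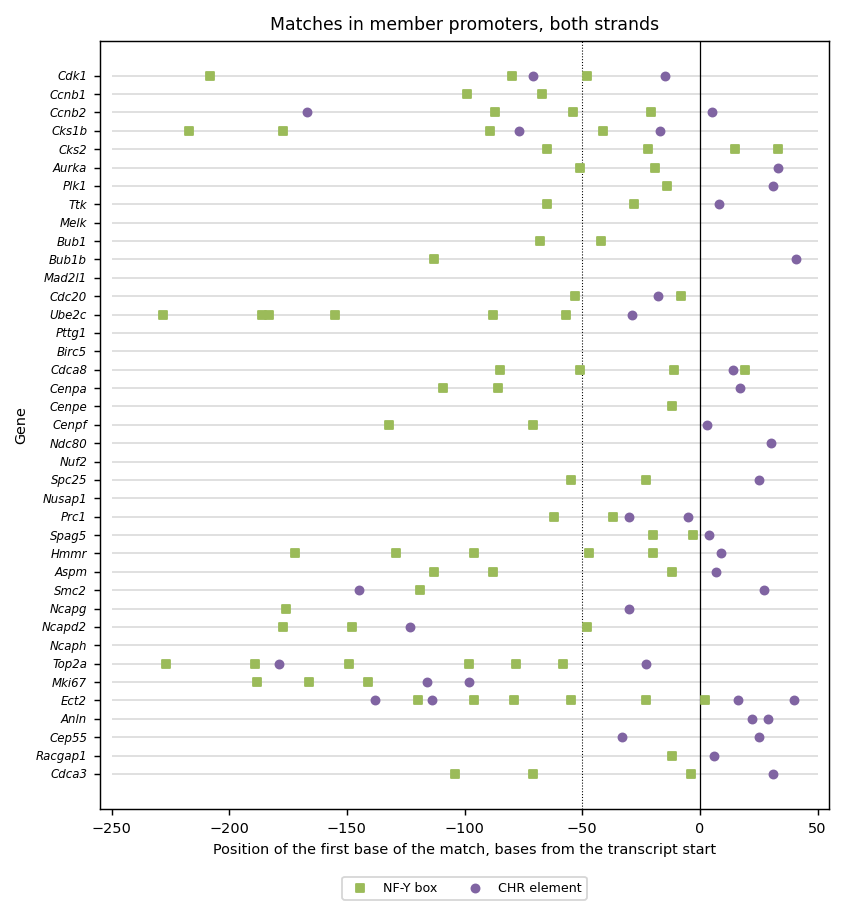
Positions of matches to CCAAT (NF-Y box, squares) and TTTGAA (CHR element, circles) in the promoters of 39 mitosis and cytokinesis genes, in bases from the annotated transcript start (solid line); the dotted line marks 50 bases upstream, and matches to either start share a line for Prc1, Ect2 and Cep55. Of the 39 promoters, 26 have a TTTGAA match starting between the dotted line and the right edge.

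The microRNA that the viruses target is printed with its seed, bases 2 to 8, in capitals, together with the stretches of the 3 genes whose longest annotated 3′ UTR holds the matching 7 letters, AAGCACA, also in capitals.
miR-218-5p: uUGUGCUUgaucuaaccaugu
Cdk1, chr10:68799769-68799775, minus strand: ccgatttgAAGCACActtgaagt
Ccna2, chr3:36464099-36464105, minus strand: tactgcttAAGCACAtcagaggt
Cep55, chr19:38148526-38148532, plus strand: actgttctAAGCACAaagcaggt
Coordinates are those of the 7 letters in mm9, the build of the deposited counts, and the miRNA is from RefSeq. The match of Cep55 is followed by A and is an 8mer. A 7-letter match was present in 3 of the 47 genes (6.38%), against 16.2% of 11086 other tested genes, with median 3′ UTR lengths of 796 and 1306 bases. The other 44 genes had no such match in that UTR.

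Counts summed to 2879382 to 3360686 in OE, 3081800 and 3329184 in KD, and 2099714 and 1591812 in control libraries, so the controls were the shallowest group. Reads over the precursor gene Mir218-1 numbered 1126, 670 and 938 in OE, 137 and 179 in KD, and 107 and 81 in control libraries. The log2 fold change of Mir218-1 was 2.47 in OE against control (edgeR adjusted p = 3.32e-12) and -0.13 in KD against control (adjusted p = 0.727), and precursor reads do not measure how much mature miRNA a knockdown virus blocks. Pan-neuronal markers were abundant in all 7 libraries, but some defining motor neuron markers were at or near 0: Mnx1 had no count in any library, Slc18a3 at most 1, and Chat between 2 and 26. Of the 12 motor neuron markers listed, 6 had enough counts to be tested. The cultures are therefore called by their viruses here. In bulk RNA, fewer cells of a type and less RNA per cell cannot be told apart.

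The mitosis and cytokinesis genes as a group were higher with either virus than with the empty one, and higher in KD than in OE. Summed over the 47 genes, their TMM-normalized counts per 1000000 library counts (CPM) came to 1061, 1244 and 1275 CPM in OE, 1691 and 1803 CPM in KD, and 701 and 579 CPM in control libraries. The 3 groups did not overlap, and the summed level of OE was 1.87 times and that of KD 2.73 times the control level. As a share of all counts, the genes took 0.104% to 0.126% in OE, 0.176% and 0.185% in KD, and 0.0683% and 0.0567% in control libraries.

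A gene was called when its adjusted p was under 0.05 over all 12134 genes tested with edgeR's quasi-likelihood test and its fold change was over 1.5, the threshold of the labels. In OE against control, 23 of the 47 genes were called higher, where 3.65% of all tested genes were. In KD against control, 38 of the 47 were called higher, where 7% of all tested genes were. In OE against KD, 13 of the 47 were called lower, where 2.37% of all tested genes were. Median log2 fold changes over the 47 genes were 1.02 in OE against control, 1.46 in KD against control and -0.58 in OE against KD, and those of all tested genes were 0.00, 0.00 and -0.01. OE and KD were compared with the same controls, so their calls are not independent of each other.

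The opposite directions held no call in edgeR. No gene of the 47 was called lower in OE or KD against control, where 1.26% and 4.71% of all tested genes were, and none reached an unadjusted p under 0.05 in that direction. None was called higher in OE against KD, where 2.93% of all tested genes were, and none reached an unadjusted p under 0.05 there. DESeq2 and limma-voom likewise made 0 calls in these directions. All OE libraries lay above both controls for 37 of the 47 genes, where 18.1% of all tested genes did so, and both KD libraries lay above both controls for 44, where 27.2% did. All OE libraries lay below both KD libraries for 28 genes, where 19.4% of tested genes did. By group mean, 40 genes were ordered KD above OE above control, 5 were highest in OE and 2 followed another order. Among the 3 OE libraries, OE 1 was the lowest for 27 of the 47 genes.

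All 47 genes had counts in every library and all passed the filter on low counts, which asked for about 3.24 CPM in at least 2 libraries. In both controls 36 of the 47 reached that level. Of those, 18 were called higher in OE, 30 were called higher in KD and 12 were called lower in OE against KD. Over all tested genes, the shares so called were 3.65%, 7% and 2.37%. The other 11 were kept through their levels in OE or KD: Ccnb2, Aurka, Ttk, Melk, Bub1, Bub1b, Aurkb, Cenpe, Hmmr, Ncapg and Cdca2. For 13 genes the 2 controls together held under 20 counts, so folds of these genes rest on few molecules in the controls. Leaving out the second control library, the shallowest of the 7, reduced the OE calls to 9 and the KD calls to 29, and leaving out the first control or the third OE library reduced the OE calls to 15 each.

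**Figure D2:**
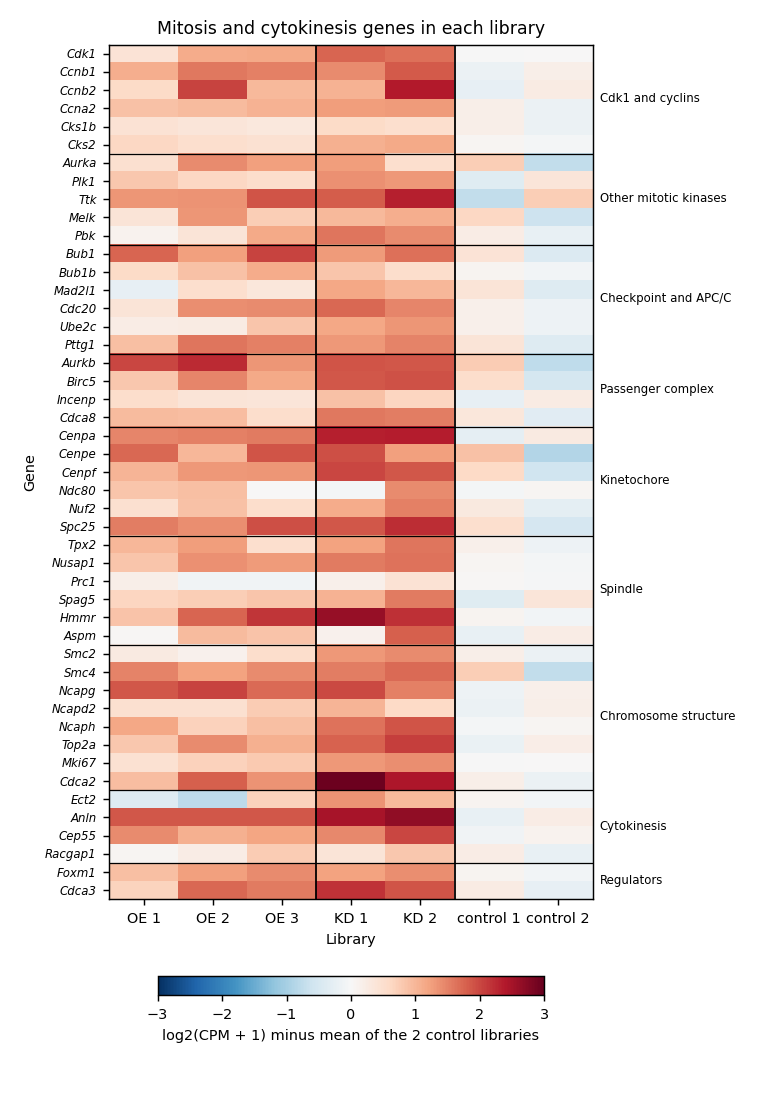
Heat map of the 47 genes (rows, grouped by role) in the 7 libraries (columns), as log2(CPM + 1) minus the mean of the 2 control libraries. Colours are strongest in the KD columns and intermediate in the OE columns, with OE 1 the lowest OE library for 27 genes.

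Among Cdk1, its cyclins and its Cks subunits, 3 of 6 rose in OE against control and 5 of 6 in KD, with median log2 fold changes of 0.95 in OE and 1.50 in KD. Cdk1, the kinase that triggers mitosis (chr10:68799383-68815686, minus strand, mm9), had 51.1, 83.9 and 85.2 CPM in OE, 130.5 and 123 CPM in KD, and 38.1 and 38.4 CPM in control libraries. The groups did not overlap, with KD highest, control lowest, and OE 1 nearest to the controls. Its log2 fold change was 0.94 in OE against control (SE 0.21, adjusted p = 0.00361), 1.73 in KD against control (SE 0.21, adjusted p = 3.55e-07) and -0.79 in OE against KD (SE 0.17, adjusted p = 0.00157). The B-type cyclin gene Ccnb1 and the A-type cyclin gene Ccna2, which partner Cdk1 at mitotic entry, rose in both. Ccnb1 had log2 fold changes of 1.51 in OE (adjusted p = 0.00328) and 1.76 in KD (adjusted p = 0.000375), and Ccna2 of 0.96 in OE (adjusted p = 0.00412) and 1.27 in KD (adjusted p = 0.000123). Ccnb2, another B-type cyclin, was spread widely, at 4.26, 13.3 and 5.86 CPM in OE, 6.24 and 17.3 CPM in KD, and 1.96 and 3.2 CPM in control libraries. The fitted log2 fold change was 1.60 in OE (adjusted p = 0.147) and 2.21 in KD (adjusted p = 0.0186), so only the KD value was called, and OE and KD overlapped.

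The genes Cks1b and Cks2 encode small subunits that help Cdk complexes bind phosphorylated substrates. Cks2 had 58.7, 54.2 and 51.8 CPM in OE, 80.2 and 83.6 CPM in KD, and 39.6 and 35.9 CPM in control libraries. Its groups did not overlap. The log2 fold change of Cks2 was 0.54 in OE (SE 0.19, adjusted p = 0.0925) and 1.11 in KD (SE 0.20, adjusted p = 0.000147), and it was called in KD. Cks1b had 55, 52.4 and 50.6 CPM in OE, 60.9 and 58.1 CPM in KD, and 45.9 and 35.9 CPM in control libraries. The same order was seen without overlap, but neither log2 fold change passed the test, at 0.35 in OE (adjusted p = 0.341) and 0.53 in KD (adjusted p = 0.09). Uniquely mapped reads were counted, and processed copies of small genes such as Cks1b, Cks2, Pttg1 and Cenpa may have taken reads out of the counts, so their levels are uncertain.

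Of the 5 other mitotic kinases, none was called in OE against control by edgeR, DESeq2 or limma-voom, with 1 of 5 at an unadjusted p under 0.05, and 3 rose in KD. Plk1, which matures centrosomes and triggers mitotic entry, had 14.3, 12.6 and 11.7 CPM in OE, 21.8 and 20.5 CPM in KD, and 5.87 and 10.3 CPM in control libraries. KD lay above the other groups and every OE library above both controls. The log2 fold change of Plk1 was 0.71 in OE (SE 0.38, adjusted p = 0.308) and 1.42 in KD (SE 0.38, adjusted p = 0.00925), and the KD call was lost without KD 1 (adjusted p = 0.058) or without control 1 (adjusted p = 0.146). Pbk, a mitotic kinase that phosphorylates histone H3 and other targets, had 14, 17.1 and 29.6 CPM in OE, 40.9 and 35.8 CPM in KD, and 15.2 and 10.9 CPM in control libraries. Both KD libraries were above all others, while OE overlapped with control. Pbk had a log2 fold change of 0.62 in OE (SE 0.33, adjusted p = 0.313) and rose in KD at 1.53 (SE 0.34, adjusted p = 0.00148), and its difference in OE against KD was -0.92 (SE 0.27, adjusted p = 0.0259; 0.066 with DESeq2, where the call was lost). Ttk, the kinase that starts checkpoint signalling, was at 1.74 in OE (SE 0.57, adjusted p = 0.0607) and rose in KD at 2.34 (SE 0.58, adjusted p = 0.00455), with 9 counts in the controls together.

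Aurka, the centrosomal Aurora kinase, had 7.3, 14.7 and 13.0 CPM in OE, 13.1 and 7.33 CPM in KD, and 8.8 and 2.56 CPM in control libraries. The 3 groups overlapped, and the log2 fold changes of 0.96 in OE (SE 0.48, adjusted p = 0.272) and 0.77 in KD (SE 0.51, adjusted p = 0.36) did not pass the test. Melk, a kinase of dividing progenitors, was likewise not called, at 0.77 in OE (adjusted p = 0.424) and 0.97 in KD (adjusted p = 0.234). The standard errors of Aurka and Melk were 0.48 to 0.52.

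Of the checkpoint and APC/C genes, 3 of 6 rose in OE and 5 of 6 in KD. Bub1, a checkpoint kinase at the kinetochore, had 14.9, 10.1 and 18.5 CPM in OE, 10.6 and 14.1 CPM in KD, and 5.38 and 2.56 CPM in control libraries. Every OE and KD library was above both controls, and OE overlapped with KD. Bub1 had a log2 fold change of 1.81 in OE (SE 0.46, adjusted p = 0.011) and 1.58 in KD (SE 0.49, adjusted p = 0.0246). The OE call was lost without OE 3 (adjusted p = 0.0649) or control 2 (adjusted p = 0.128) and with limma-voom (adjusted p = 0.106). The KD call of Bub1 was lost without KD 2 (adjusted p = 0.166) or control 2 (adjusted p = 0.176), with DESeq2 (adjusted p = 0.0584) and with limma-voom (adjusted p = 0.113). Bub1b, which encodes the checkpoint protein BubR1, had 4.56, 5.94 and 7.1 CPM in OE, 5.62 and 4.4 CPM in KD, and 2.93 and 2.56 CPM in control libraries. The controls were lowest without overlap, but the log2 fold changes of 1.07 in OE (SE 0.63, adjusted p = 0.372) and 0.85 in KD (SE 0.68, adjusted p = 0.464) did not pass the test on 10 control counts.

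Mad2l1, the gene of the checkpoint protein Mad2 that binds Cdc20, had 15.5, 26.9 and 23.8 CPM in OE, 43.1 and 37.8 CPM in KD, and 24.4 and 14.1 CPM in control libraries. KD stood above all others, and OE overlapped with control, with OE 2 above both controls. On the log2 scale its fold change was 0.16 in OE (SE 0.29, adjusted p = 0.831), 1.04 in KD (SE 0.30, adjusted p = 0.0165) and -0.88 in OE against KD (SE 0.25, adjusted p = 0.023). The KD call of Mad2l1 was lost without KD 1 (adjusted p = 0.115), KD 2 (adjusted p = 0.0517) or control 2 (adjusted p = 0.178). Ube2c, the ubiquitin-conjugating enzyme of the APC/C, had 28.6, 29.0 and 44.1 CPM in OE, 54.9 and 62.5 CPM in KD, and 26.9 and 21.8 CPM in control libraries. KD was highest without overlap, and 2 OE libraries lay just above the higher control. Ube2c was at 0.47 in OE (SE 0.25, adjusted p = 0.313), rose in KD at 1.26 (SE 0.26, adjusted p = 0.00076), and differed in OE against KD by -0.79 (SE 0.21, adjusted p = 0.0141). Cdc20, the APC/C activator that the checkpoint blocks, rose in OE at 1.18 (adjusted p = 0.0323) and in KD at 1.67 (adjusted p = 0.00119). Pttg1, which encodes securin, the inhibitor of separase, rose in both, at 1.35 in OE (adjusted p = 0.00698) and 1.39 in KD (adjusted p = 0.00433).

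The chromosomal passenger complex, an Aurora B kinase module that corrects faulty attachments and later marks the division plane, rose in 2 of 4 genes in OE and 4 of 4 in KD. Birc5, which encodes survivin, had 37.4, 59 and 46.9 CPM in OE, 78.7 and 81 CPM in KD, and 30.8 and 14.1 CPM in control libraries. The groups did not overlap, and OE lay between KD and control. Its log2 fold change was 1.04 in OE (SE 0.26, adjusted p = 0.00929), 1.78 in KD (SE 0.26, adjusted p = 8.26e-06) and -0.74 in OE against KD (SE 0.20, adjusted p = 0.0179). The OE call of Birc5 was lost without OE 2 (adjusted p = 0.0528) or control 2 (adjusted p = 0.212). Incenp, the scaffold of the complex, had 33.5, 30.4 and 29.9 CPM in OE, 43.1 and 36.4 CPM in KD, and 19.1 and 27.5 CPM in control libraries. Groups were ordered without overlap, but the steps were small. Incenp was not called in OE, at 0.44 (SE 0.25, adjusted p = 0.353), and was called in KD, at 0.79 (SE 0.27, adjusted p = 0.0423). That KD call was lost without OE 3 (adjusted p = 0.0519), KD 1 (adjusted p = 0.227), KD 2 (adjusted p = 0.0776) or control 1 (adjusted p = 0.322), and with DESeq2, limma-voom, the replicate block and 2 groups only (adjusted p = 0.0541 to 0.0783). Aurkb, the kinase itself, rose in OE (1.83, SE 0.44, adjusted p = 0.0081) and KD (1.79, SE 0.46, adjusted p = 0.00691), with a difference in OE against KD of 0.03 (SE 0.33). Cdca8, which encodes borealin, was at 0.82 in OE (adjusted p = 0.26) and rose in KD (1.62, adjusted p = 0.00572).

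The 6 kinetochore genes had the largest ratio of summed levels to control among the roles with more than 2 genes. It was 2.41 in OE and 3.49 in KD, with 4 of 6 called in OE and 5 of 6 in KD. Their median log2 fold change was also the largest of these roles in OE, at 1.23. In KD it was 1.60, below the passenger complex (1.70) and chromosome structure (1.66). Other kinetochore and centromere genes, described further below, had smaller ratios of summed levels to control, 1.35 in OE and 1.72 in KD. Cenpa, the histone H3 variant that marks centromeres (chr5:30969150-30977200, plus strand, mm9), had 20.4, 21.0 and 21.6 CPM in OE, 37.8 and 38.7 CPM in KD, and 5.38 and 8.33 CPM in control libraries. Libraries of a group lay close together and the groups far apart. Cenpa had a log2 fold change of 1.64 in OE (SE 0.34, adjusted p = 0.00182), 2.5 in KD (SE 0.34, adjusted p = 1.95e-06) and -0.86 in OE against KD (SE 0.24, adjusted p = 0.0178), and the OE call was lost without control 1 (adjusted p = 0.054). Spc25, a subunit of the Ndc80 complex that grips microtubules, had 45.9, 41.2 and 60.5 CPM in OE, 57.1 and 74.2 CPM in KD, and 22 and 10.3 CPM in control libraries. The controls lay far below, while OE and KD overlapped. Spc25 rose in OE at 1.56 (SE 0.27, adjusted p = 0.000262) and in KD at 1.98 (SE 0.28, adjusted p = 4.81e-06). Cenpf, a large kinetochore protein, had 33.5, 40.9 and 42.0 CPM in OE, 67.4 and 60.7 CPM in KD, and 24.9 and 10.3 CPM in control libraries. The groups did not overlap, and the controls differed from each other more than the OE libraries did.

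Cenpf rose in OE at a log2 fold change of 1.09 (SE 0.27, adjusted p = 0.0104) and in KD at 1.81 (SE 0.28, adjusted p = 1.54e-05), and its difference in OE against KD was -0.73 (SE 0.21, adjusted p = 0.0296; 0.0504 with DESeq2, where the call was lost). Without control 2, the OE value of Cenpf was 0.64 (adjusted p = 0.233). Cenpe, the kinetochore motor that carries chromosomes to the spindle equator, was called in OE at 1.36 (adjusted p = 0.0342) and in KD at 1.39 (adjusted p = 0.0235). Nuf2, a partner of Spc25, was at 0.64 in OE (adjusted p = 0.387) and was called in KD, at 1.38 (adjusted p = 0.0148). Ndc80, the namesake of the complex, had 17, 18.2 and 9.26 CPM in OE, 8.74 and 26.1 CPM in KD, and 8.8 and 9.61 CPM in control libraries. OE 3 lay between the controls and the other OE libraries above them, while the KD libraries straddled the controls' level. Neither OE nor KD was called, at 0.69 in OE (adjusted p = 0.406) and 0.93 in KD (adjusted p = 0.175).

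Of the spindle genes, 3 of 6 rose in OE and 4 of 6 in KD. Nusap1, which bundles spindle microtubules, had 24.9, 36.7 and 33.9 CPM in OE, 41.8 and 44.0 CPM in KD, and 14.2 and 12.8 CPM in control libraries. The groups did not overlap, and KD was highest. The fitted log2 fold change was 1.23 in OE (SE 0.28, adjusted p = 0.00491) and 1.66 in KD (SE 0.29, adjusted p = 9.4e-05). Hmmr, a hyaluronan receptor that also acts in spindle assembly, had 5.78, 11.5 and 15.4 CPM in OE, 21.8 and 16.1 CPM in KD, and 2.93 and 2.56 CPM in control libraries. KD was highest and control lowest, with a wide spread in OE. Hmmr rose in OE at 1.96 (SE 0.53, adjusted p = 0.0172) and in KD at 2.76 (SE 0.52, adjusted p = 0.000288), with only 10 counts in the controls. From the counts alone, its KD level was 7.2 times that of control, with an exact 95% interval of 3.79 to 15.4 that covers counting error only. The OE call of Hmmr was lost without OE 3 (adjusted p = 0.103), control 1 (adjusted p = 0.0791) or control 2 (adjusted p = 0.0983), with limma-voom (adjusted p = 0.219) and with the replicate block (adjusted p = 0.0845).

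Prc1, which crosslinks the microtubules of the central spindle (chr7:87439336-87461145, plus strand, mm9), had 34.1, 28 and 27.8 CPM in OE, 33.7 and 41.1 CPM in KD, and 30.8 and 29.5 CPM in control libraries. OE spanned the control values, and both KD libraries lay slightly above them. The log2 fold change of Prc1 was -0.01 in OE (SE 0.24, adjusted p = 0.989), changing sign with the scaling, and 0.31 in KD (SE 0.25, adjusted p = 0.476). Tpx2, which activates Aurora A on the spindle, rose in OE at 0.97 (adjusted p = 0.0449) and in KD at 1.46 (adjusted p = 0.00114). Spag5, which encodes the spindle protein astrin, was at 0.82 in OE (adjusted p = 0.322) and rose in KD at 1.46 (adjusted p = 0.0269). Aspm, a spindle pole protein needed by neural progenitors, was not called, at 0.76 in OE (adjusted p = 0.474) and 1.33 in KD (adjusted p = 0.0968), and its KD libraries stood apart at 5.93 and 20.8 CPM.

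**Figure D3:**
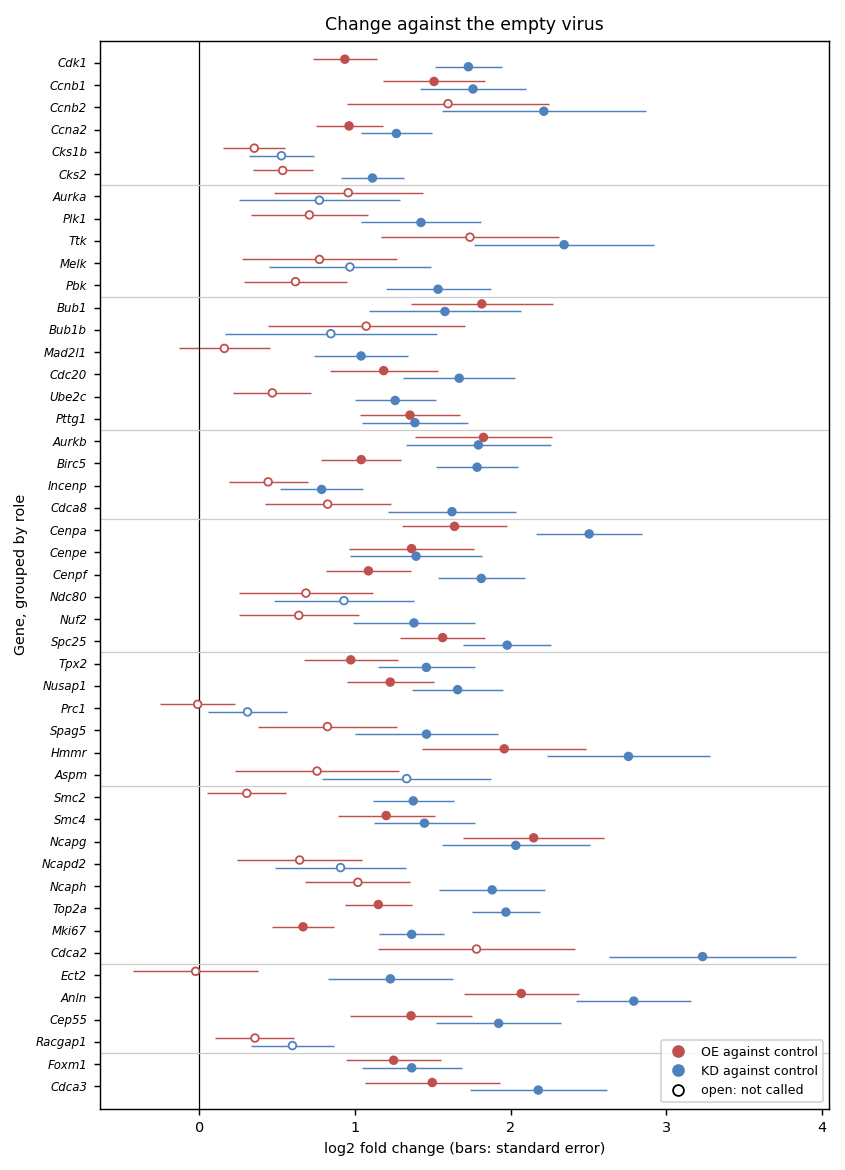
Log2 fold changes of the 47 genes against control with standard errors, OE in red above KD in blue for each gene, grouped by role; filled points were called and open points were not. KD points lie to the right of OE points for all but 5 genes.

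Chromosome structure genes, which compact and untangle chromatin, rose in 4 of 8 cases in OE and 7 of 8 in KD. Top2a, the topoisomerase that separates intertwined sister DNA (chr11:98854257-98885503, minus strand, mm9), had 54.7, 84.5 and 66.0 CPM in OE, 107 and 134 CPM in KD, and 26.9 and 35.2 CPM in control libraries. All 3 groups were apart. On the log2 scale its fold change was 1.15 in OE (SE 0.21, adjusted p = 0.000541), 1.97 in KD (SE 0.22, adjusted p = 5.69e-08) and -0.82 in OE against KD (SE 0.17, adjusted p = 0.00122). Mki67, whose protein Ki-67 coats mitotic chromosomes and marks cycling cells, had 47.1, 55.2 and 58.9 CPM in OE, 84.3 and 90.0 CPM in KD, and 33.7 and 34.0 CPM in control libraries. Again the groups did not overlap, and replicates were close. Mki67 rose in OE at 0.67 (SE 0.20, adjusted p = 0.0357) and in KD at 1.36 (SE 0.21, adjusted p = 1.19e-05), and its difference in OE against KD was -0.70 (SE 0.17, adjusted p = 0.00537). The OE call of Mki67, close to the fold threshold, was lost without OE 2 (adjusted p = 0.0808), OE 3 (adjusted p = 0.134), control 1 (adjusted p = 0.129) or control 2 (adjusted p = 0.125). It was also lost with limma-voom (adjusted p = 0.105), with the replicate number as a block (adjusted p = 0.156) and with 2 groups only in the fit (adjusted p = 0.0587).

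Condensin, the ring complex that shapes mitotic chromosomes, was measured through Smc2, Smc4, Ncapg, Ncapd2 and Ncaph. Smc2 (chr4:52452115-52501237, plus strand, mm9) had 25.5, 23.1 and 30.9 CPM in OE, 53.1 and 58.4 CPM in KD, and 23.9 and 18.6 CPM in control libraries. KD was far above the rest, and OE overlapped with control. Its log2 fold change was 0.31 in OE (SE 0.25, adjusted p = 0.568), 1.37 in KD (SE 0.26, adjusted p = 0.000256) and -1.07 in OE against KD (SE 0.21, adjusted p = 0.000768). Ncapg had 14.9, 16.8 and 13.3 CPM in OE, 16.2 and 11.4 CPM in KD, and 2.93 and 3.84 CPM in control libraries. OE and KD overlapped and both lay above control. Ncapg had the largest OE change of the 47 genes, 2.15 (SE 0.45, adjusted p = 0.00228), against 2.03 in KD (SE 0.48, adjusted p = 0.00287), on 12 control counts, and the OE call was lost with limma-voom (adjusted p = 0.0512). Ncaph had 20.7, 14.7 and 17 CPM in OE, 29.0 and 34.6 CPM in KD, and 8.31 and 8.97 CPM in control libraries. Its groups were apart, with 1.02 in OE (SE 0.34, adjusted p = 0.0624), 1.88 in KD (SE 0.34, adjusted p = 0.000151) and -0.86 in OE against KD (SE 0.26, adjusted p = 0.0305). The last call was lost with DESeq2 (adjusted p = 0.0739), with the replicate block (adjusted p = 0.0926) and without 4 of the 5 OE and KD libraries in turn. Smc4, the partner of Smc2, rose in OE at 1.20 (adjusted p = 0.0132) and in KD at 1.45 (adjusted p = 0.00192), and Ncapd2 was not called, at 0.64 in OE (adjusted p = 0.405) and 0.91 in KD (adjusted p = 0.156).

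Cdca2, which targets a phosphatase to chromosomes as they decondense (chr14:68291234-68333898, minus strand, mm9), had 3.95, 8.04 and 5.55 CPM in OE, 19.0 and 12.9 CPM in KD, and 1.96 and 1.28 CPM in control libraries. Its groups did not overlap, and both controls were at a few counts. Cdca2 was at 1.78 in OE (SE 0.63, adjusted p = 0.0881) and had the largest KD change of the 47 genes, 3.23 (SE 0.60, adjusted p = 0.000216). The controls held 6 counts in all, and the KD ratio from counts was 10.1 with an exact 95% interval of 4.48 to 28.1. In OE against KD the log2 fold change of Cdca2 was -1.45 (SE 0.40, adjusted p = 0.0178). That call was lost with the replicate block (adjusted p = 0.0632) and without OE 1 (adjusted p = 0.093), OE 3 (adjusted p = 0.0632), KD 1 (adjusted p = 0.336) or KD 2 (adjusted p = 0.0542), and DESeq2 gave Cdca2 no adjusted p in this comparison.

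Of the cytokinesis genes, 2 of 4 rose in OE and 3 of 4 in KD. Anln, which encodes the contractile ring scaffold anillin (chr9:22135658-22193650, minus strand, mm9), had 20.1, 19.9 and 20.1 CPM in OE, 30.9 and 35.2 CPM in KD, and 3.91 and 5.77 CPM in control libraries. The groups were widely apart, and the OE libraries nearly coincided. Anln rose in OE at 2.07 (SE 0.37, adjusted p = 0.000338) and in KD at 2.79 (SE 0.37, adjusted p = 1.39e-06), and was at -0.72 in OE against KD (SE 0.25, adjusted p = 0.0673). Ect2, the exchange factor that activates RhoA at the division plane, had 8.21, 5.94 and 18.2 CPM in OE, 29.3 and 22.6 CPM in KD, and 11.7 and 10.3 CPM in control libraries. KD was highest, and 2 of 3 OE libraries lay below both controls. The fitted log2 fold change was -0.02 in OE (SE 0.40, adjusted p = 0.985), changing sign when single libraries were left out, 1.23 in KD (SE 0.40, adjusted p = 0.0354) and -1.25 in OE against KD (SE 0.33, adjusted p = 0.014). The KD call of Ect2 was lost without KD 1 (adjusted p = 0.223), KD 2 (adjusted p = 0.0693), control 1 (adjusted p = 0.091) or control 2 (adjusted p = 0.13), and with DESeq2 and limma-voom.

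Racgap1, a subunit of the centralspindlin complex that recruits Ect2, had 29.8, 33.9 and 49.1 CPM in OE, 38.1 and 50.7 CPM in KD, and 33.7 and 24.3 CPM in control libraries. OE overlapped with both other groups, and neither log2 fold change was called, at 0.36 in OE (SE 0.25, adjusted p = 0.483) and 0.60 in KD (SE 0.27, adjusted p = 0.14). Cep55, which organizes the final cut between daughter cells, rose in OE at 1.36 (adjusted p = 0.0276) and in KD at 1.92 (adjusted p = 0.000826). Kif23, the motor subunit of centralspindlin and a gene outside the 47, had log2 fold changes of 1.44 in OE (adjusted p = 0.00582) and 1.51 in KD (adjusted p = 0.00278).

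Of the regulators, Foxm1, the transcription factor that binds with MuvB at mitotic promoters, had 21.3, 26.9 and 30.9 CPM in OE, 26.8 and 30.2 CPM in KD, and 11.7 and 10.3 CPM in control libraries. OE and KD overlapped, and both lay above control. Foxm1 had a log2 fold change of 1.25 in OE (SE 0.31, adjusted p = 0.00888) and 1.36 in KD (SE 0.32, adjusted p = 0.00301), and the OE call was lost without OE 3 (adjusted p = 0.0506) or control 2 (adjusted p = 0.0741) and with limma-voom. Cdca3, which directs destruction of the mitotic inhibitor Wee1, had 8.21, 18.2 and 16.0 CPM in OE, 25.0 and 20.2 CPM in KD, and 5.87 and 3.84 CPM in control libraries. OE lay between KD and control without overlap. Cdca3 rose in OE at 1.50 (SE 0.43, adjusted p = 0.0298) and in KD at 2.18 (SE 0.44, adjusted p = 0.000601). Its OE call was lost without OE 2 (adjusted p = 0.115), OE 3 (adjusted p = 0.0931), control 1 (adjusted p = 0.0596) or control 2 (adjusted p = 0.189), and with DESeq2, limma-voom, the replicate block and 2 groups only (adjusted p = 0.051 to 0.221).

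The calls of members given by their fold changes alone also depended on the method or on single libraries. In OE, the calls of Cdc20, Cenpe, Tpx2 and Cep55 were lost with DESeq2, with limma-voom and when 1 of 3 to 6 single libraries was left out, and those of Pttg1 and Aurkb with limma-voom. Without control 2 the following were not called: Aurkb at 1.26 in OE (adjusted p = 0.146) and 1.22 in KD (adjusted p = 0.112), Pttg1 at 1.04 in OE (adjusted p = 0.116) and 1.07 in KD (adjusted p = 0.0665), Smc4 at 0.68 in OE (adjusted p = 0.268) and 0.92 in KD (adjusted p = 0.0646), and Cenpe at 0.77 in OE (adjusted p = 0.366) and 0.79 in KD (adjusted p = 0.27). The OE call of Ccna2 was lost without control 2 (adjusted p = 0.0688) and that of Ccnb1 without control 1 (adjusted p = 0.0532). In KD, the calls of Ccnb2, Nuf2, Cenpe and Spag5 were lost with limma-voom, and that of Spag5 with DESeq2 (adjusted p = 0.0692). Single libraries also ended the KD calls of Ccnb2, Ttk, Cdca8, Nuf2 and Spag5. The KD call of Ccnb2 was lost without KD 2, at 1.29 (adjusted p = 0.394), and without control 1 (adjusted p = 0.128). Calls made in every fit without 1 library numbered 6 of 23 in OE (Anln, Cdk1, Ncapg, Nusap1, Spc25 and Top2a), 24 of 38 in KD and 1 of 13 in OE against KD.

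**Figure D4:**
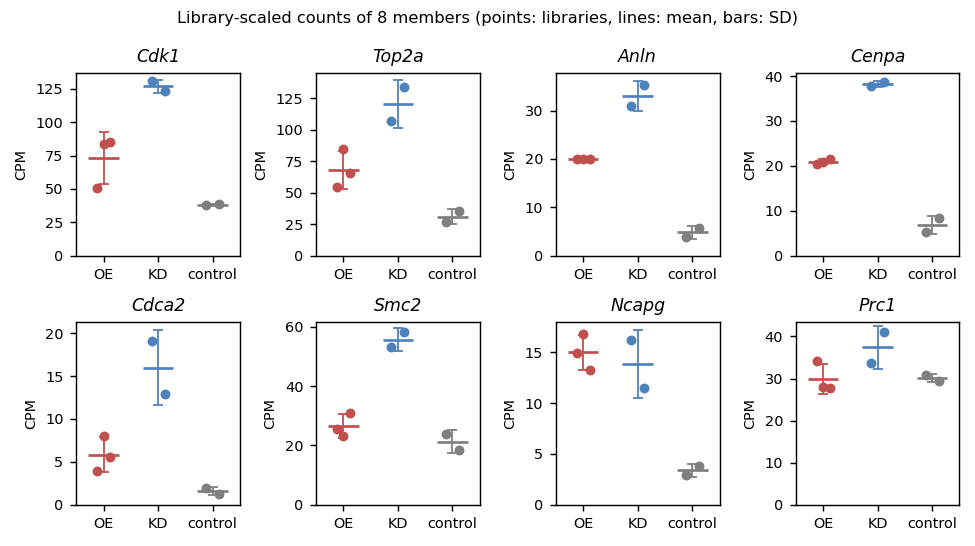
CPM of 8 of the genes in each library (points), with the group mean (line) and SD (bars), for OE, KD and control. For Cdk1, Top2a, Anln and Cenpa the OE points lie below KD and above control, Cdca2 and Smc2 are high in KD, Ncapg is alike in OE and KD, and Prc1 differs little between groups.

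Set directly against each other, OE and KD differed in 13 of the 47 genes, all lower in OE. The largest differences were those of Cdca2 (-1.45), Ect2 (-1.25) and Smc2 (-1.07), followed by Pbk, Mad2l1, Cenpa, Ncaph, Top2a, Cdk1, Ube2c, Birc5, Cenpf and Mki67, between -0.92 and -0.70. They came from 7 of the 9 roles, with 5 of the 8 chromosome structure genes among them. The spindle genes and the 2 regulators held no call in edgeR, DESeq2 or limma-voom, with 1 spindle gene and 1 regulator lower at an unadjusted p under 0.05. Cks2 passed the adjusted p in OE against KD (0.0232) and missed the fold threshold, at -0.58. The 5 genes with a higher mean in OE, Bub1, Bub1b, Aurka, Ncapg and Aurkb, had log2 fold changes of 0.03 to 0.24 and none passed the test, with the smallest adjusted p 0.777. With DESeq2 the calls of Pbk, Cenpf and Ncaph were lost and Cdca2 had no adjusted p, and with the replicate block those of Cdca2 and Ncaph were lost. This comparison rests on 5 libraries, and single libraries changed its calls. Without KD 2 the calls numbered 2 (Smc2 and Cdk1), without KD 1 they numbered 3 (Smc2, Top2a and Mki67), and without OE 1, 2 or 3 they numbered 5, 7 and 9. Smc2 alone was called in every one of these fits, and the median log2 fold change over the 47 genes lay between -0.64 and -0.39 in the 7 fits without 1 library.

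**Figure D5:**
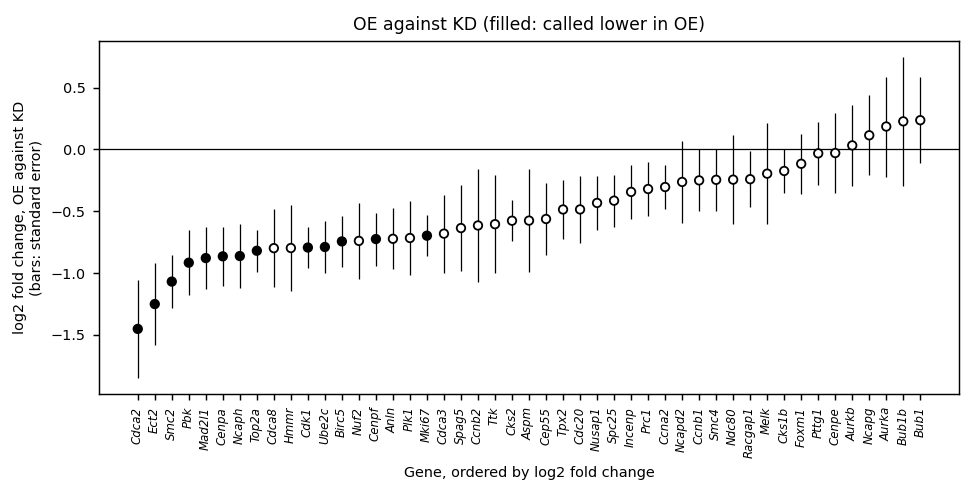
Log2 fold change in OE against KD with its standard error for each of the 47 genes, in order of size; filled points mark the 13 genes called lower in OE. All but 5 points lie below 0, from -1.45 for Cdca2 to 0.24 for Bub1.

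Genes that work beside the 47 were counted in the same fit, where 3.65% of all tested genes were called higher in OE and 7% in KD. Of 11 tested mitotic kinesins, 3 were called higher in OE and 8 in KD, with median log2 fold changes of 1.20 in OE and 1.76 in KD. Kif20a, a motor of the central spindle, had 27.4, 25.9 and 23.1 CPM in OE, 35.0 and 36.7 CPM in KD, and 5.38 and 17.9 CPM in control libraries, and rose in OE (1.20, adjusted p = 0.0254) and KD (1.69, adjusted p = 0.000793). Kif18a, which dampens chromosome movements, was called in KD (1.81, adjusted p = 0.0269) and lower in OE against KD (-1.5, adjusted p = 0.0323). DESeq2 made 0 calls among the kinesins in OE against KD, so the latter call was lost there. With DESeq2 and with limma-voom, 2 kinesins were called higher in OE and 5 in KD. Of 25 other kinetochore and centromere genes, 2 were called in OE and 9 in KD, with medians of 0.62 and 1.13. DESeq2 called 1 of them in OE and 5 in KD, and limma-voom 1 and 4. Zwilch, part of a checkpoint complex, had the largest OE change among those called, 2.07 in OE (adjusted p = 0.000952) and 2.59 in KD (adjusted p = 2.27e-05).

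The lists of cohesin and of the other APC/C subunits had medians close to that of all tested genes, of which 3.65% were called higher in OE and 7% in KD. Of 10 tested genes of cohesin and separase, 0 were called in OE or KD by edgeR, DESeq2 or limma-voom, with 0 in OE and 2 in KD at an unadjusted p under 0.05, and medians were 0.07 in OE and -0.10 in KD. The 14 APC/C genes outside the 47 summed to 1104 to 1229.8 CPM in OE, 1147 and 1048 CPM in KD, and 1126 and 1226 CPM in control libraries. The groups overlapped, and 1 of the 14 (7.14%) was called higher in OE and in KD, close to the share of all tested genes in KD. This was Fbxo5, which encodes the APC/C inhibitor Emi1, at 1.26 in OE (adjusted p = 0.012) and 1.58 in KD (adjusted p = 0.00102). Its OE call was lost with limma-voom, which called 0 of the 14 in OE.

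Among 9 tested phosphatases and kinases of mitotic entry, 1 was called higher and 1 lower in OE, and 5 were called higher in KD. Their medians were 0.45 in OE and 1.27 in KD. DESeq2 called 5 of them higher in KD, and limma-voom 3. In the same fit, 3.65% of all tested genes were called higher and 1.26% lower in OE, and 7% higher in KD. Mastl, the Greatwall kinase, rose in OE (1.87, adjusted p = 0.000927) and KD (1.93, adjusted p = 0.000442). Arpp19, the phosphatase inhibitor that Greatwall activates, fell in OE at -0.63 (adjusted p = 0.000818), with 115 to 124 CPM in OE, 162 and 166 CPM in KD, and 176 and 188 CPM in control libraries. Of 17 tested genes of E2F, MuvB and pocket proteins, 1 was called higher in OE (5.88%) and 3 in KD (17.6%). The OE share was near that of all tested genes. Rbl1, which encodes the pocket protein p107, rose in both, at 2.33 in OE (adjusted p = 0.00645) and 2.77 in KD (adjusted p = 0.000551). Of this list, DESeq2 called 1 higher in OE and 2 in KD, and limma-voom 0 and 2. The OE call of Rbl1 was thus lost with limma-voom.

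Genes of earlier steps of the cell cycle also held calls. Of 20 genes of DNA replication, 8 were called higher in OE and 15 in KD, and 6 were lower in OE against KD, with medians of 0.79 in OE and 1.37 in KD. The shares of all tested genes called in these directions were 3.65%, 7% and 2.37%. DESeq2 called 7, 14 and 6 of the replication genes in these directions, and limma-voom 3, 14 and 7. Rrm2, a subunit of ribonucleotide reductase, had 118 to 149.7 CPM in OE, 188 and 192 CPM in KD, and 77.7 and 51.3 CPM in control libraries. It rose in OE at 1.02 (adjusted p = 5.66e-05) and in KD at 1.54 (adjusted p = 3.09e-08). The ratio of the summed CPM of the 47 genes to that of the replication genes was 1.36, 1.55 and 1.47 in OE, 1.51 and 1.42 in KD, and 1.32 and 1.26 in control libraries, so OE and KD overlapped on it and both lay above control. Ccnd1, the cyclin of the early cell cycle, rose to 166 to 182 CPM in OE and 215 and 179 CPM in KD, against 79.2 and 80.7 CPM in control libraries. On the log2 scale its fold change was 1.14 in OE (adjusted p = 6.75e-07) and 1.30 in KD (adjusted p = 3.79e-08). Cdkn1c, an inhibitor of cyclin-dependent kinases linked to cell cycle exit, fell by 0.79 on the log2 scale in OE (adjusted p = 0.0046) and by 0.70 in KD (adjusted p = 0.0113). Cdkn2b, another inhibitor, rose in OE at 2.10 (adjusted p = 0.00469) and was at 1.43 in KD (adjusted p = 0.0602).

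Markers of other cell types moved in the same libraries. The 14 markers of astrocytes and radial glia summed to 4436, 4412 and 4599 CPM in OE, 3907 and 4614 CPM in KD, and 3154 and 2800.4 CPM in control libraries, with 6 called higher and 1 lower in OE and 7 higher and 1 lower in KD. Their sum was above control in both groups without being higher in KD than in OE. By gene, 9 of the 14 had a negative and 5 a positive log2 fold change in OE against KD, with a median of -0.12. Of these genes 1 was called lower in OE against KD, where 2.37% of all tested genes were. Among all tested genes, 3.65% were called higher and 1.26% lower in OE, and 7% higher and 4.71% lower in KD. The 47 genes per astroglial CPM gave 0.239, 0.282 and 0.277 in OE, 0.433 and 0.391 in KD, and 0.222 and 0.207 in control libraries, so KD stood apart on this ratio and OE lay just above control. The 12 pan-neuronal markers summed to 8096 to 8677 CPM in OE, 6594 and 6699 CPM in KD, and 9083 and 9121 CPM in control libraries, with KD lowest. The 12 motor neuron markers summed to 51.7 to 63.9 CPM in OE, 63.1 and 55.7 CPM in KD, and 50.3 and 45.5 CPM in control libraries. OE and KD overlapped on this sum, and both lay above control. The single markers did not share a direction. Of the 6 tested, 3 had a positive and 3 a negative log2 fold change in OE, and likewise in KD. Their medians were 0.007 in OE and -0.15 in KD. Of the 6 that were tested, 1 was called higher in OE and 1 in KD by edgeR, and 0 by DESeq2 or limma-voom. The 10 fibroblast and meningeal markers summed to 237 to 316 CPM in OE, 282 and 318 CPM in KD, and 198 and 175 CPM in control libraries. Of the other lists, the oligodendrocyte lineage summed to 60.8 to 96.3 CPM in OE, 96.1 and 106 CPM in KD, and 90.4 and 55.1 CPM in control libraries, with KD above both controls and overlapping with OE. Microglia summed to 23.1 to 33.3 CPM in OE, 33.7 and 34.0 CPM in KD, and 32.3 and 30.1 CPM in control libraries, with KD slightly above every other library. Only 1 of the 8 microglial markers had enough counts to be tested. It was at -0.07 in KD against control, so the order of the sums is uncertain. Schwann and neural crest cells lay at 63.9 to 71.2 CPM in OE, 63.4 and 59.2 CPM in KD, and 72.3 and 56.4 CPM in control libraries, with KD below OE and both overlapping with control. Endothelium, with 1 of its 6 markers tested, lay between 1.47 and 14.3 CPM, and its 3 groups overlapped. The part of these cell types in the changes of the mitotic genes was not tested.

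Split by promoter, the 26 genes with TTTGAA near the start had median log2 fold changes of 1.01 in OE and 1.65 in KD, and the 13 without it 1.02 in OE and 1.39 in KD. In OE against KD the medians were -0.63 with it and -0.43 without. The ranges of both sets overlapped widely, from -0.02 to 2.15 with it and 0.16 to 1.81 without it in OE, and no test of the difference was made. The 3 genes with a miR-218 seed match, Cdk1, Ccna2 and Cep55, rose in OE as well as in KD, at the values given above.

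In the authors' deposited table, from DESeq2, the same thresholds gave 23 of the 47 genes higher in OE and 38 higher in KD, all of them also called here, and 13 lower in OE against KD.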

How the data were processed

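Per the labels' protocols, 50-base single reads from 1 lane were processed with CASAVA 1.8.2, aligned by TopHat2 2.0.10 against mouse build mm9, and assigned to genes by HTSeq-count 0.6.1p1 where they mapped uniquely. Annotation and strand setting: not given in the sources used here. Reads of overlapping genes can therefore not be told apart. The deposited raw counts of 23366 genes, per the file headers, were the values used, and 6232 of the genes had no count. Columns of the authors' deposited comparisons (DESeq2 1.4.5), namely log2 fold changes, signed folds and adjusted p-values, served only to count calls at the labels' thresholds.

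The analysis used edgeR 4.0.16 under R 4.3.3, with TMM scaling, filterByExpr by group and a robust two-sided quasi-likelihood F test. All 7 libraries entered a single model of group means (4 residual degrees of freedom, median prior 28.1, coefficient of biological variation 12.5%). Calls needed a fold change over 1.5 and an adjusted p (Benjamini-Hochberg, 12134 genes) under 0.05. Each SE is the log2 fold change divided by the square root of its F statistic. The fit was tested on simulated counts. Ratios of counts carry exact 95% intervals, which cover counting error only.

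Values in every library were given for the 2 members with the highest mean CPM in each role, for the 3 largest and 3 smallest changes in each comparison, and for members called in OE against KD; Ccnb2, Ndc80 and the KD values of Aspm were added after their values were seen. Genes beside the members were among the 3 with the highest mean CPM in each list or had its largest called change in a comparison. The members and lists were chosen with earlier results of these data known. Alternatives were DESeq2 1.42.0, limma-voom (limma 3.58.1), other scalings and filters, a replicate block, only the 2 groups compared, no fold threshold, and leaving out each library.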

Additional observations from a re-analysis of the deposited data

How the results depend on the processing

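Over the alternative settings, the 47 genes held no call against the reported directions. The count called higher in OE, 23, was 18 with DESeq2, 19 with the replicate block or with 2 groups only, 11 with limma-voom, and 9 to 22 when single libraries were left out. The count called higher in KD, 38, was 34 with DESeq2, 37 with the replicate block, 31 with limma-voom and 29 to 38 without single libraries. The count called lower in OE against KD, 13, was 9 with DESeq2 (no adjusted p for Cdca2), 11 with the replicate block, 14 with limma-voom, 15 with library totals only and 2 to 14 without single libraries. All tested genes called in OE against control numbered 596 as reported, 356 with limma-voom, 397 without OE 3 and 340 without control 2. In KD against control 1420 became 882 without KD 2, and in OE against KD 643 became 371 without KD 1, 377 without KD 2 and 973 with no fold threshold. The cause of these shifts was not tested. Whether replicate numbers mark a shared culture is not stated. Deviations from the group mean of libraries with the same number correlated at -0.0561 to 0.0261, with OE 3 left out. In groups of 2 libraries these deviations mirror each other, so the correlations cannot exclude a pairing.

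Genes that changed sign were uncalled. Prc1 in OE against control had log2 fold changes of 0.011 with upper-quartile scaling, 0.0046 with library totals only, 0.00053 with no filter on low counts and 0.042 with the replicate block, and -0.11 to 0.043 without single libraries. In OE against KD, Bub1 had -0.0044 with the replicate block. Without single libraries, Ect2 ranged from -0.63 to 0.26 and Mad2l1 from -0.14 to 0.64 in OE against control, and in OE against KD Foxm1 ranged from -0.25 to 0.023, Aurka from -0.17 to 0.67 and Ncapg from -0.11 to 0.39. With DESeq2, limma-voom, the replicate block and 2 groups only, 11 of 23 calls in OE, 31 of 38 in KD and 9 of 13 in OE against KD were not lost. The controls held 2 to 94 counts per member, which limits the precision of every fold against them.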
